A study of Mus musculus with 17 samples.

Results

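The genes described here encode the nuclear subunits, paralogous isoforms and close assembly factors of the oxidative phosphorylation (OXPHOS) system. They were the array genes whose symbol began with Nduf, Uqcr, Cox4 to Cox8 or Atp5, or was Sdha, Sdhb, Sdhc or Sdhd, and whose probe set named 1 gene. This gave 84 genes of the 12393 on the array, of which 45 had more than 1 probe set and were represented by the probe set with the highest mean. They comprised 38 genes of complex I, 4 of complex II, 8 of complex III, 17 of complex IV and 17 of complex V. The rule uses gene names and not levels or differences, and all 84 genes were tested.

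Oxidative phosphorylation takes place in the inner mitochondrial membrane. Complex I and complex II pass electrons from NADH and succinate to ubiquinone, complex III passes them to cytochrome c, complex IV hands them to oxygen, and the proton gradient that complexes I, III and IV build drives ATP synthesis by complex V. Core subunits carry the redox centres or the catalytic sites, accessory subunits hold the complexes together, and several complex IV subunits exist as a ubiquitous form and as a form restricted to muscle, lung or testis. Some core subunits are encoded by mitochondrial DNA; none of the 13 such genes was named on this array.

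Whole-lung RNA was measured on 17 arrays, 1 per male mouse. Wild-type C57BL/6J mice received intravenous saline and were studied after 22 h (n = 4), or received lipopolysaccharide (LPS, an endotoxin, here of Escherichia coli O111:B4) at 20 mg/kg and were studied after 7 h (n = 3) or 22 h (n = 3). Mice lacking the inducible nitric oxide synthase gene (NOS2-/-) received saline and were studied after 22 h (n = 1), or received the same LPS dose and were studied after 7 h (n = 3) or 22 h (n = 3). The mice weighed 21 to 27 g, and neither labels nor methods state their age or the strain background of the NOS2-/- mice. There was no 7 h saline group, so that both LPS times were set against the 22 h saline mice. Values are the authors' log2 signals, a difference of 1 being a doubling, and a gene was called higher or lower at a Benjamini-Hochberg adjusted p under 0.05 in limma over all 22626 probe sets.

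The Nos2 probe set read 8.47, 8.17, 7.75 and 8.31 log2 units in wild-type saline mice, 8.93, 9.00 and 9.06 at 7 h and 8.80, 8.19 and 8.48 at 22 h after LPS. It read 8.29 in the NOS2-/- saline mouse, 8.97, 9.00 and 8.85 at 7 h and 9.20, 9.25 and 8.99 at 22 h in NOS2-/- mice. The NOS2-/- values overlapped the wild-type values after saline and at 7 h and lay above them at 22 h. As the sources used here do not place the probe set inside the deleted part of the gene, this signal did not check the genotype labels. As a marker of lung, Sftpc, the surfactant protein of alveolar type 2 cells, read between 14.17 and 14.88 log2 units.

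A pair of libraries stood apart from the rest of their kind. The single NOS2-/- saline mouse had the highest value of all 17 mice for 62 of the 84 OXPHOS genes (73.8%), against 9.66% of all genes. In the same lung 9 of 14 skeletal muscle markers, 11 of 12 cardiac muscle markers and 8 of 11 squamous epithelium markers were called higher than in wild-type saline mice. The second library, wild-type LPS 22 h replicate 2, had the lowest value of its group for 64 of the 84 genes (76.2%), against 54.8% of all genes, and the lowest correlation within that group was 0.949. For wild-type mice at 22 h, values without the second library are also given where a count moved by over 1.5 times or the call of a named gene changed. The first was the only control of its genotype, so NOS2-/- mice were also set against wild-type saline mice, while differences in response between genotypes could be computed with it only.

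The middle of the OXPHOS genes moved little in wild-type mice. The median over the 84 genes of the deviation from each gene's mean over all mice was 0.03, 0.08, 0.10 and 0.12 log2 units in wild-type saline mice, 0.00, -0.01 and -0.02 at 7 h and 0.03, -0.20 and 0.01 at 22 h after LPS. It was 0.39 in the NOS2-/- saline mouse, -0.05, -0.10 and -0.17 in NOS2-/- mice at 7 h and -0.02, -0.05 and -0.06 at 22 h. The wild-type saline mice lay above the wild-type LPS mice at 7 h without overlap, while 1 of the 22 h mice reached the lowest of them, and all lay below the NOS2-/- saline mouse.

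**Figure D1:**
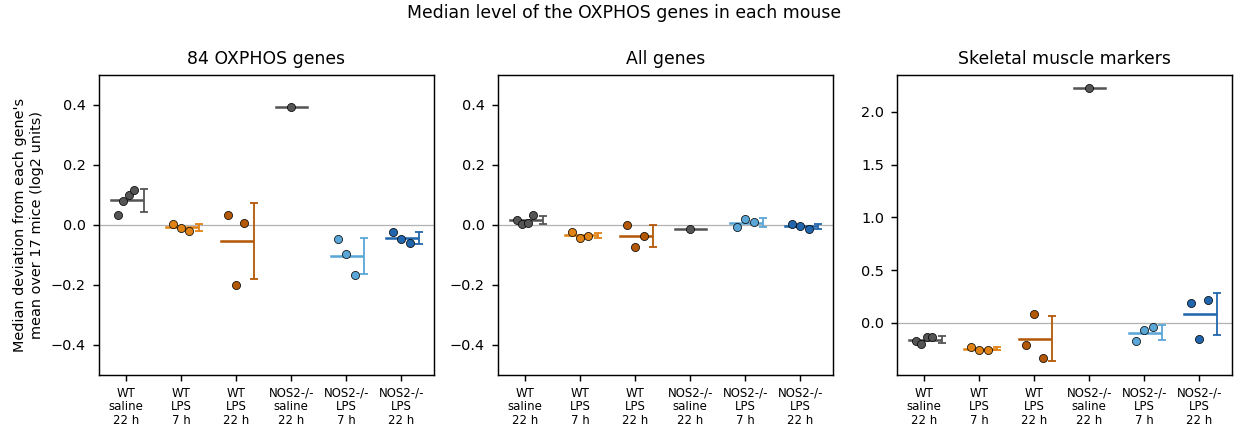
Each point is 1 mouse, the horizontal line is the group mean and the bar beside it the SD (groups of 3 or 4 mice); the y axis is the median over the genes of the log2 deviation from each gene's mean over 17 mice, for the 84 OXPHOS genes, all 12393 genes and 14 skeletal muscle markers. The NOS2-/- saline mouse is highest for the OXPHOS genes (0.39) and for the muscle markers (2.22), and wild-type LPS 22 h replicate 2 is lowest for the OXPHOS genes.

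In wild-type mice, a minority of the OXPHOS genes were called lower after LPS on the deposited values, and a few were called higher. At 7 h, 22 of the 84 genes (26.2%) were called lower and 6 (7.1%) higher, where 20.6% of all genes were called lower and 14.6% higher. At 22 h, 26 (31.0%) were called lower and 6 (7.1%) higher, against 22.6% and 13.1% of all genes. The shares called lower were thus somewhat above those of all genes, and the shares called higher were below them. The median log2 fold change over the 84 genes was -0.09 at 7 h and -0.16 at 22 h, beside -0.07 and -0.02 over all genes. Both comparisons used the same 4 saline mice, and in whole lung fewer cells of a type and less RNA per cell cannot be told apart.

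Without wild-type LPS 22 h replicate 2, 28 OXPHOS genes were called lower and 14 higher at 22 h, where the background was 24.3% and 19.0%, and the median log2 fold change was -0.07. The 7 h counts were then 29 lower and 10 higher, since all groups share 1 estimate of spread, against 29.8% and 18.8% of all genes. Without wild-type LPS 22 h replicate 1, 3 genes were called higher at 22 h. With quantile normalisation of the arrays, 43 genes were called lower and 5 higher at 7 h, where 22.1% of all genes were lower and 14.9% higher. Cell-type markers moved with LPS in the same lungs: at 22 h 10 of 12 endothelial and 10 of 11 smooth muscle and pericyte markers were called lower, and 10 of 11 neutrophil markers higher. In the same comparison 7 of 8 alveolar type 2 and 7 of 9 lung epithelium markers were called lower, with a median log2 fold change of -0.70 and -0.55. The mean log2 signal of the endothelial markers ran from 11.83 to 11.98 in wild-type saline mice and from 10.07 to 10.43 at 22 h, and that of the neutrophil markers from 9.18 to 9.49 and from 11.58 to 11.76. The part of these shifts in the OXPHOS values was not tested.

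**Figure D2:**
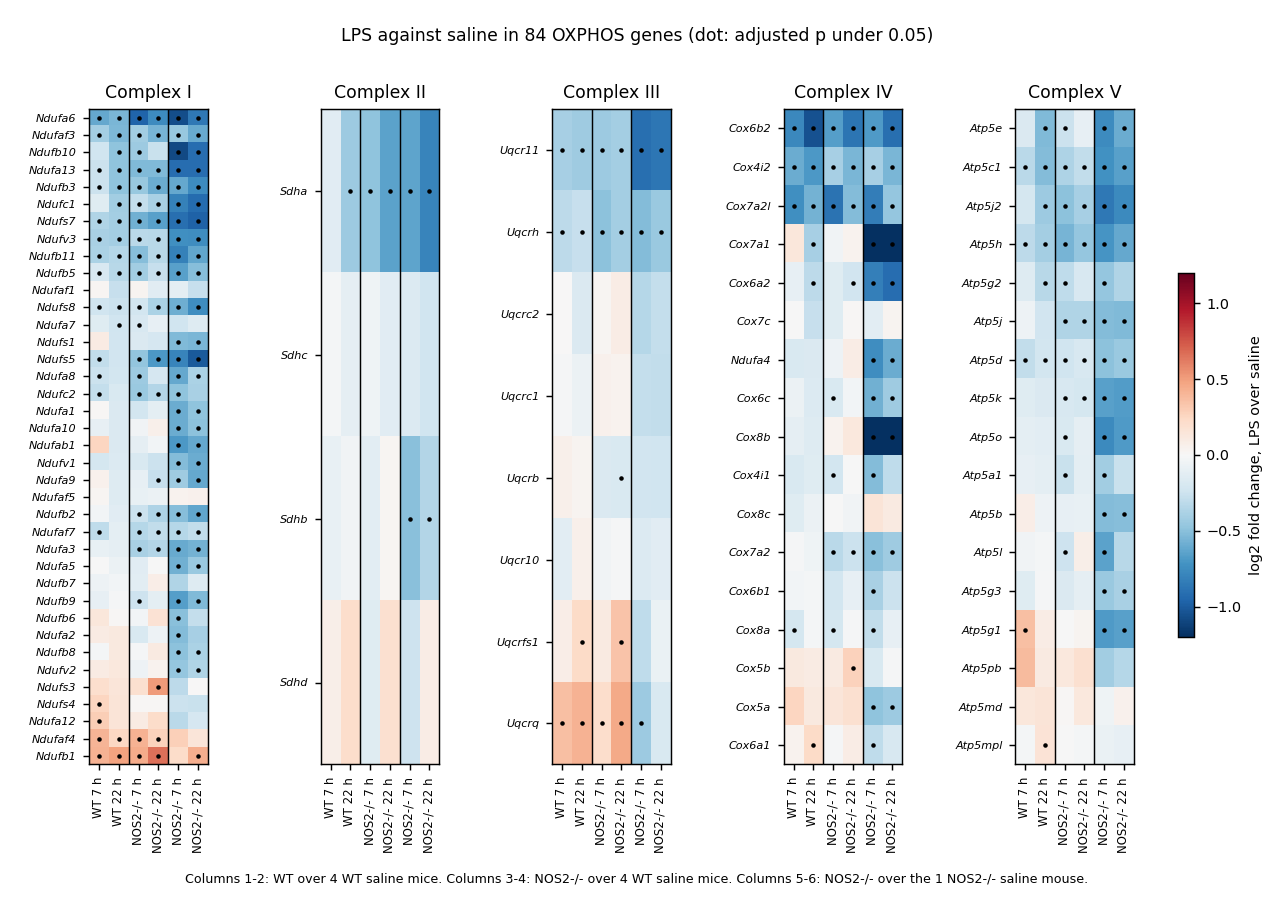
Each row is 1 of the 84 OXPHOS genes, sorted within its complex by the wild-type change at 22 h, the colour is the log2 fold change of LPS over saline (scale clipped at 1.2 either way), and a dot marks an adjusted p under 0.05. Columns use, from left, wild-type LPS mice over the 4 wild-type saline mice, NOS2-/- LPS mice over the same 4 mice, and NOS2-/- LPS mice over the 1 NOS2-/- saline mouse, where 62 and 51 genes were called lower.

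The largest falls were in complex IV, the cytochrome c oxidase. Of its 17 genes, 4 were called lower at 7 h and 5 at 22 h, and 1 was called higher, at 22 h. At 22 h 7 were lower and 2 higher without wild-type LPS 22 h replicate 2. Cox7a2l encodes a factor described as tying complex III to complex IV in respiratory supercomplexes. Only its RNA was measured, and whether its product has this function in the mice used here was not tested. Its signal was 11.32, 11.33, 11.38 and 11.30 log2 units in wild-type saline mice, 10.60, 10.59 and 10.61 at 7 h and 10.77, 10.71 and 10.81 at 22 h after LPS. All LPS mice lay below all saline mice, and the 7 h mice lay below the 22 h mice. The log2 fold change was -0.73 ± 0.07 (SE, adjusted p = 3.81e-07) at 7 h, 1.66-fold lower, and -0.57 ± 0.07 (SE, adjusted p = 6.12e-06) at 22 h. Both other probe sets of Cox7a2l were also called lower at each time.

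Cox6b2 encodes the testis-type form of subunit 6b. Its probe set was dim, with a mean of 7.56 log2 units over all mice against a median of 8.87 over all genes. It read 8.10, 7.94, 8.33 and 8.22 log2 units in saline mice, 7.40, 7.40 and 7.32 at 7 h and 7.15, 7.33 and 6.83 at 22 h, with no overlap between saline and LPS mice. Its log2 fold change was -0.78 ± 0.11 (SE, adjusted p = 3.28e-05) at 7 h and -1.05 ± 0.11 (SE, adjusted p = 1.42e-06) at 22 h, the latter 2.07-fold lower and the one change of 2-fold or more among the 84 genes in wild-type mice. Cox4i2, the form of subunit 4 that is abundant in lung and is tied to oxygen sensing in pulmonary arteries, read 9.72, 9.55, 9.59 and 9.79 in saline mice, 9.10, 8.98 and 9.12 at 7 h and 8.97, 9.11 and 8.85 at 22 h. Here too every LPS mouse was below every saline mouse. The log2 fold change of Cox4i2 was -0.60 ± 0.08 (SE, adjusted p = 2.18e-05) at 7 h and -0.69 ± 0.08 (SE, adjusted p = 5.17e-06) at 22 h.

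The ubiquitous subunits of complex IV moved less. Cox8a was called lower at 7 h (-0.21 on the log2 scale, adjusted p = 0.0163), although 1 of its other probe sets was called higher there, and Cox6a1 was called higher at 22 h (0.23, adjusted p = 0.00824). The second probe set of Cox6a1 gave -0.13 at 22 h and was not called. The other 8 ubiquitous subunits, among them Cox4i1, Cox5a, Cox5b and Cox6c, passed the test at neither time on the probe sets that represent them. For Cox5b, 1 other probe set was called at 7 h and 2 were called higher at 22 h. The other probe sets of Cox5b ran from -0.11 to 0.35 at 7 h and from 0.02 to 0.30 at 22 h. Of these, Cox5a was called higher without wild-type LPS 22 h replicate 2, at 0.26 at 7 h and 0.28 at 22 h. Cox7a1 and Cox6a2, forms found in heart and skeletal muscle, were not called at 7 h and were called lower at 22 h, with log2 fold changes of -0.40 (adjusted p = 0.0024) and -0.31 (adjusted p = 0.00104). In the same comparison 9 of 12 cardiac markers were called lower, their mean log2 signal running from 9.95 to 10.22 in saline mice and from 9.37 to 9.55 at 22 h, while 0 of 14 skeletal muscle markers were called in either direction (8 and 2 lower without wild-type LPS 22 h replicate 2). The part of cardiac muscle in the 22 h fall was not tested. Cox8b, another muscle form, and the testis form Cox8c gave log2 fold changes of -0.16 and -0.07 at 22 h and were not called, and without wild-type LPS 22 h replicate 2 both were called lower, at -0.43 and -0.17.

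**Figure D3:**
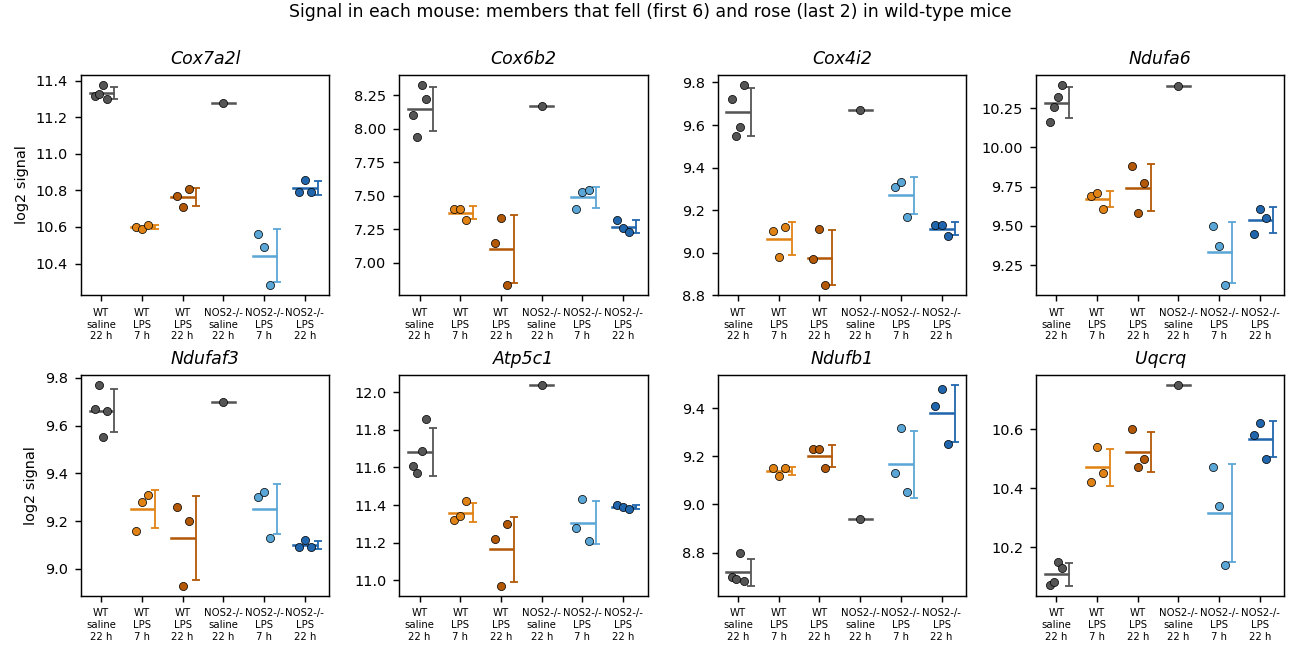
Log2 signal of 8 OXPHOS genes in each of the 17 mice, with the group mean as a line and the SD as a bar; each panel has its own y axis. The first 6 genes were called lower and the last 2 higher in wild-type mice at both times, and in the 6 that fell all LPS mice of both genotypes lie below the wild-type saline mice.

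In complex I, which takes electrons from NADH, 13 of 38 genes were called lower and 4 higher at 7 h, and 12 lower and 2 higher at 22 h. The 22 h counts were 14 lower and 8 higher without wild-type LPS 22 h replicate 2. Ndufa6, an accessory subunit, showed the largest fall. It read 10.16, 10.26, 10.32 and 10.40 log2 units in saline mice, 9.69, 9.71 and 9.61 at 7 h and 9.88, 9.58 and 9.77 at 22 h. The groups did not overlap, and the log2 fold change was -0.61 ± 0.09 (SE, adjusted p = 0.0001) at 7 h and -0.55 ± 0.09 (SE, adjusted p = 0.0003) at 22 h. Ndufaf3, which is needed to assemble the complex, read 9.67, 9.77, 9.55 and 9.66 in saline mice, 9.16, 9.28 and 9.31 at 7 h and 9.26, 8.93 and 9.20 at 22 h. Its log2 fold change was -0.41 ± 0.08 (SE, adjusted p = 0.00122) and -0.53 ± 0.08 (SE, adjusted p = 0.000125), again with no overlap.

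Of the 6 core subunits of complex I measured, Ndufs7 and Ndufs8, which carry iron-sulphur clusters near the ubiquinone site, fell at both times. The log2 fold change of Ndufs7 was -0.36 at 7 h and -0.41 at 22 h, and that of Ndufs8 -0.24 and -0.26. The core subunits Ndufs1, Ndufs3, Ndufv1 and Ndufv2 passed the test at neither time. Ndufs3 was called higher at 7 h (0.20) and 22 h (0.28), and Ndufv2 at 22 h (0.17), without wild-type LPS 22 h replicate 2. Among accessory subunits, Ndufb3, Ndufb5, Ndufb11, Ndufa13 and Ndufv3 were called lower at both times, with log2 fold changes between -0.48 and -0.20. Ndufa8, Ndufc2, Ndufs5 and the assembly factor Ndufaf7 were called lower at 7 h, and Ndufa7, Ndufb10 and Ndufc1 at 22 h. The change of Ndufb10 at 22 h was -0.49 with and -0.29 without wild-type LPS 22 h replicate 2.

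A few complex I genes rose instead. Ndufb1, a small accessory subunit, read 8.70, 8.69, 8.80 and 8.68 log2 units in saline mice, 9.15, 9.12 and 9.15 at 7 h and 9.23, 9.23 and 9.15 at 22 h. All LPS mice exceeded all saline mice, with log2 fold changes of 0.42 ± 0.07 (SE, adjusted p = 0.000305) and 0.48 ± 0.07 (SE, adjusted p = 8.58e-05). The assembly factor Ndufaf4 rose by 0.41 at 7 h (adjusted p = 0.000977) and 0.25 at 22 h (adjusted p = 0.0283) on the log2 scale. The other probe set of Ndufaf4 gave 0.33 at 7 h and -0.21 at 22 h, neither of them called. Ndufa12 and Ndufs4 were called higher at 7 h, by 0.30 and 0.26. With all mice, 2 other probe sets of Ndufa12 were called higher at 22 h, where its other probe sets ran from 0.09 to 0.46. The representing probe set gave 0.15 there and was not called. Ndufa12 and Ndufs4 were also called higher at 22 h without wild-type LPS 22 h replicate 2, as were Ndufa2 (0.28) and Ndufb8 (0.24).

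Complex II, succinate dehydrogenase, showed 1 call. Sdha, its flavin-carrying subunit, read 11.59, 11.56, 11.69 and 11.60 log2 units in saline mice, 11.51, 11.58 and 11.34 at 7 h and 11.31, 10.88 and 11.31 at 22 h. The 22 h mice lay below all saline mice while those at 7 h overlapped them, and the log2 fold change was -0.13 ± 0.10 (SE, adjusted p = 0.359) at 7 h and -0.44 ± 0.10 (SE, adjusted p = 0.00264) at 22 h. The other probe set of Sdha was called lower at both times, at -0.40 at 7 h and -0.74 at 22 h. Sdhb, the iron-sulphur subunit, and the membrane anchors Sdhc and Sdhd gave log2 fold changes of -0.04, -0.11 and 0.21 at 22 h and were not called. Sdhd was called higher at 22 h without wild-type LPS 22 h replicate 2, at 0.29.

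In complex III, the cytochrome bc1 complex, members moved in both directions. Uqcr11 and the hinge subunit Uqcrh were called lower at 7 h (-0.40 and -0.31 on the log2 scale) and at 22 h (-0.42 and -0.27). Uqcrq, the subunit next to cytochrome b, read 10.07, 10.08, 10.15 and 10.13 log2 units in saline mice, 10.42, 10.54 and 10.45 at 7 h and 10.60, 10.47 and 10.50 at 22 h. Saline and LPS mice did not overlap, and the log2 fold change was 0.36 ± 0.07 (SE, adjusted p = 0.00146) at 7 h and 0.41 ± 0.07 (SE, adjusted p = 0.000454) at 22 h. The other 3 probe sets of Uqcrq gave log2 fold changes of -0.06 to 0.14 at 7 h and 0.03 to 0.06 at 22 h, none of them called. Uqcrfs1, the Rieske iron-sulphur protein, was called higher at 22 h (0.23, adjusted p = 0.0281), and the core subunits Uqcrc1 and Uqcrc2 were not called at either time. Uqcr10 gave 0.06 at 22 h and was not called, while its 2 other probe sets were called lower, at -0.32 and -0.26.

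In complex V, the ATP synthase, 3 of 17 genes were called lower at 7 h and 6 at 22 h, and 1 was higher at each time. Atp5c1, the gamma subunit that turns inside the catalytic head, read 11.61, 11.57, 11.69 and 11.86 log2 units in saline mice, 11.32, 11.34 and 11.42 at 7 h and 11.22, 10.97 and 11.30 at 22 h. Every LPS mouse was below every saline mouse, with a log2 fold change of -0.32 ± 0.09 (SE, adjusted p = 0.0103) and -0.52 ± 0.09 (SE, adjusted p = 0.000257). The other probe set of Atp5c1 gave -0.08 at both times. Atp5e, the epsilon subunit of the rotor, read 9.76, 9.75, 10.00 and 9.95 in saline mice, 9.70, 9.66 and 9.70 at 7 h and 9.46, 9.21 and 9.33 at 22 h. The 22 h mice were below all others, with a log2 fold change of -0.53 ± 0.08 (SE, adjusted p = 0.000131) at 22 h, while the 7 h change of -0.18 was not called. Atp5d of the rotor and Atp5h of the peripheral stalk were called lower at both times, and Atp5j2 at 22 h, at -0.44 with and -0.23 without wild-type LPS 22 h replicate 2.

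The paralogous genes of the membrane c-ring gave different values. Atp5g1 was called higher at 7 h (0.36 on the log2 scale, adjusted p = 0.00174), Atp5g2 lower at 22 h (-0.34, adjusted p = 0.0158), and Atp5g3 gave -0.15 and -0.02 with no call. The catalytic subunits Atp5a1 and Atp5b were not called at either time (-0.12 and -0.06 at 22 h). Atp5mpl, a small membrane subunit, was called higher at 22 h (0.17, adjusted p = 0.0403), a call that was lost without wild-type LPS 22 h replicate 2. The calls of Atp5g2 and Uqcrh at 22 h were also lost without that mouse, with log2 fold changes of 0.15, -0.22 and -0.16 for the 3 genes. Conversely Atp5pb, a peripheral stalk subunit, was called higher without it, at 0.38 at 7 h and 0.37 at 22 h.

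Between 7 h and 22 h in wild-type mice, 4 OXPHOS genes were called lower and 0 higher, against 8.45% and 3.48% of all genes. The 4 were Cox7a1 (-0.54 on the log2 scale, adjusted p = 0.00173), Atp5e (-0.35, adjusted p = 0.0193), Atp5g1 (-0.27, adjusted p = 0.0474) and Ndufb3 (-0.22, adjusted p = 0.0474). With quantile normalisation 4 genes were lower and 10 higher, against 7.88% and 6.53% of all genes. At an unadjusted p under 0.05, 18 of the 84 genes passed. Without single wild-type LPS mice the number called lower ran from 1, without any 1 of the 7 h mice, to 8, without 22 h replicate 3, and 3 genes were called higher and 5 lower without 22 h replicate 2 (background 8.04% and 8.52%) and 2 were called higher without 22 h replicate 3. The median log2 difference over the 84 genes was -0.05, and 0.06 with quantile normalisation.

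For complex IV, 5 tissue forms and Cox7a2l were also set against a ubiquitous paralogue within each array, which cancels whatever scales a whole array. The log2 ratio of Cox4i2 to Cox4i1 changed from saline by -0.41 at 7 h and -0.54 at 22 h, that of Cox6b2 to Cox6b1 by -0.74 and -1.02, and that of Cox7a2l to Cox7a2 by -0.72 and -0.52. In each of these 6 comparisons all 3 LPS mice lay below all 4 saline mice, giving p = 0.0286 in an exact two-sided permutation test, the smallest that 3 against 4 mice allows, and 0.0429 after Benjamini-Hochberg adjustment over 12 tests. The same p was reached at 22 h by Cox7a1 over Cox7a2 (-0.34) and Cox6a2 over Cox6a1 (-0.54). At 7 h these ratios changed by 0.15 (exact permutation p = 0.2) and -0.14 (exact permutation p = 0.143). Cox8b over Cox8a changed by 0.10 at 7 h and -0.14 at 22 h, with overlapping mice (exact permutation p = 0.486 and 0.686). The 22 h values include wild-type LPS replicate 2, which had the highest value of its group for every ratio. It read -3.46 against -4.34 and -4.31 for Cox8b over Cox8a, and -4.44 against -5.00 and -5.19 for Cox6b2 over Cox6b1. The ratios were added after the data were seen, and both times used the same 4 saline mice.

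**Figure D4:**
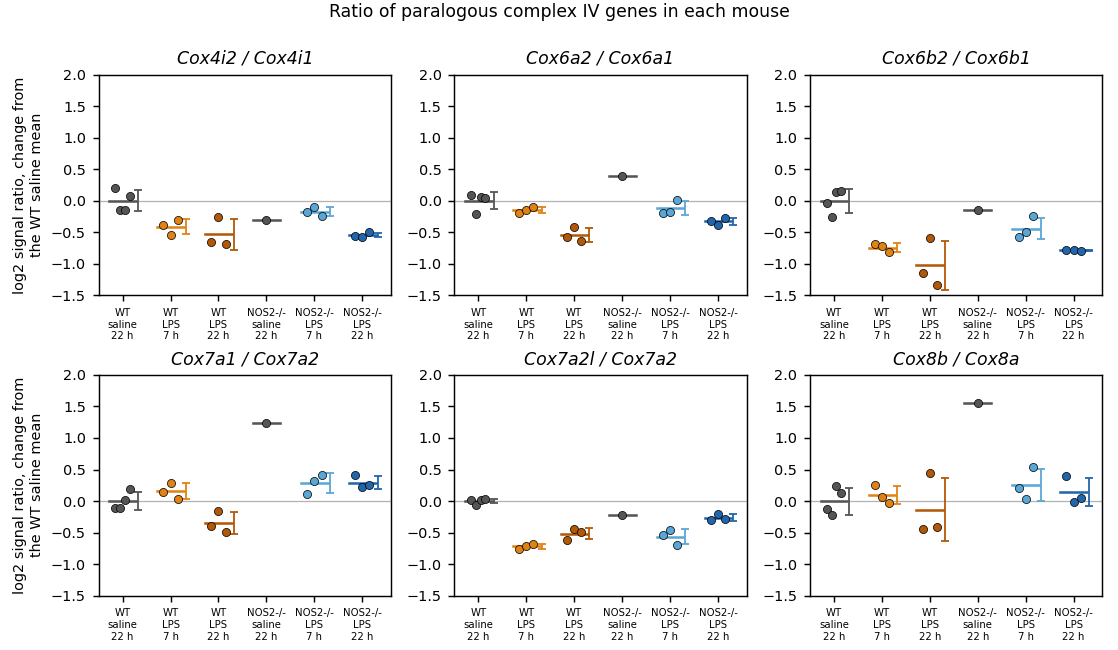
Log2 ratio within each array of a tissue form of a complex IV subunit, or of Cox7a2l, to a ubiquitous paralogue. Values are the change from the wild-type saline mean, points are mice, lines group means and bars SD. Cox4i2, Cox6b2 and Cox7a2l lie below the wild-type saline mice in all wild-type LPS mice, and the muscle forms Cox7a1 and Cox8b are highest in the NOS2-/- saline mouse.

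Promoter sequences were read for the members to see what letters those that moved together share. RefSeq windows (GRCm38.p6, 250 bases before to 50 after the start) were held for 70 of the 84 genes, in 75 windows. They are shown for Cox7a2l and Ndufa6, the largest falls at 7 h after the testis form Cox6b2, for Atp5c1, the largest fall of complex V at 7 h, and for Ndufb1, the largest rise. Capitals mark matches on either strand to the 8-letter core CGCANGCG of nuclear respiratory factor 1, a regulator of nuclear OXPHOS genes.
Cox7a2l (chr17:83514284-83514583, - strand): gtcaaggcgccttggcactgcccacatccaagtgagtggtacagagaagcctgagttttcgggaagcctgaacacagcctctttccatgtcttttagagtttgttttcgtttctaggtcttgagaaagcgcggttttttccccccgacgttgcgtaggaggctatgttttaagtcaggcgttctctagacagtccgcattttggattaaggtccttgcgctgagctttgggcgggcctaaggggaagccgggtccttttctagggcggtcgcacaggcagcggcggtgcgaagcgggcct
Ndufa6 (chr15:82354242-82354541, - strand): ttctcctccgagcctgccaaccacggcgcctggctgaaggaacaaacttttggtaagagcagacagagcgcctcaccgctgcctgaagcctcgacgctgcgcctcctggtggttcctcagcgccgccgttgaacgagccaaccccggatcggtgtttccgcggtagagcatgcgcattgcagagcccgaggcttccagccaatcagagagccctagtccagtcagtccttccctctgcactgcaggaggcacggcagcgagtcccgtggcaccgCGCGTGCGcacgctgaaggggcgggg
Atp5c1 (chr2:10080383-10080682, - strand): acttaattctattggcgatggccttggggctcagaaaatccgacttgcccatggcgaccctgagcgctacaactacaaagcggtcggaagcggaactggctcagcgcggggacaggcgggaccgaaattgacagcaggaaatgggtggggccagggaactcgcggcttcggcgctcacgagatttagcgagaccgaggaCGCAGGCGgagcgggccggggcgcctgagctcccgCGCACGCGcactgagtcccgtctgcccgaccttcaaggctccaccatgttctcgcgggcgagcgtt
Ndufb1 (chr12:101975689-101975988, - strand): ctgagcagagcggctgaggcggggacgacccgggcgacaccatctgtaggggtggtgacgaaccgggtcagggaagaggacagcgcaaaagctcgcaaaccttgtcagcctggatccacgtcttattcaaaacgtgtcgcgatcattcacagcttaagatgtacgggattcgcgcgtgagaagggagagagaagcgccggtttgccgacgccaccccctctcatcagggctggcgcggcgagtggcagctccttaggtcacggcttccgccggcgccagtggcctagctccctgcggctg

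The Atp5c1 window shown held 2 matches, that of Ndufa6 1, and those of Cox7a2l and Ndufb1 none. A second, overlapping window of Atp5c1, not shown, held 1. Over all members, 28 of 75 windows (37.3%) held this core, against 8.2% of all 32851 RefSeq promoter windows of the same length. The core CCGGAAG of ETS factors such as GABPA was found in 24.0% of member windows and 8.9% of all windows. AAGGTCA, the estrogen-related receptor core, was found in 9.3% and 4.7%, and AAGATGGCG, a YY1 core, in 8.0% and 1.4%. CCGGAAG ends in the letters AAG with which AAGATGGCG and AAGGTCA begin, so that 1 stretch can match both, and a match is a description of the sequence, not a binding site. The windows of the isoform genes Cox6b2, Cox7a1 and Cox8b held none of the 4. Those of the ubiquitous complex IV genes Cox5a, Cox5b, Cox7a2, Cox7c and Ndufa4, and that of Cox7a2l, held none either. Matches were found for Cox6a1, Cox6b1 and Cox8a.

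In NOS2-/- mice the size of the fall depended on the control. Against the single NOS2-/- saline mouse, 62 of the 84 genes were called lower and 0 higher at 7 h, and 51 lower and 1 higher at 22 h. The background was 15.6% lower and 9.39% higher at 7 h and 18.3% and 11.7% at 22 h. The median log2 fold change over the OXPHOS genes was -0.51 at 7 h and -0.44 at 22 h, against 0.04 and 0.02 over all genes. All 5 complexes had a negative median at both times, from -0.32 in complex III to -0.53 in complex I at 7 h. The lone saline mouse was assumed to vary like the other groups.

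Against the 4 wild-type saline mice, the same NOS2-/- LPS mice gave 40 genes lower and 3 higher at 7 h (background 23.5% and 15.9%), and 31 lower and 6 higher at 22 h (background 25.7% and 17.5%). The median log2 fold changes were then -0.18 and -0.11. Both comparisons share the LPS mice, and in the second genotype and treatment cannot be told apart. Cox7a2l, Cox6b2, Cox4i2, Ndufa6, Ndufaf3 and Atp5c1 were called lower at both times whichever control was used. For Cox7a2l the NOS2-/- mice read 11.28 log2 units after saline, 10.56, 10.49 and 10.28 at 7 h and 10.79, 10.86 and 10.79 at 22 h. For Cox6b2 they read 8.17 after saline, 7.40, 7.53 and 7.54 at 7 h and 7.32, 7.26 and 7.23 at 22 h. The saline mouse was above all LPS mice for both genes and lay within the range of the wild-type saline mice for Cox6b2 and just below it for Cox7a2l.

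The NOS2-/- saline mouse itself was compared with the 4 wild-type saline mice. It exceeded all 4 for 69 of the 84 genes (82.1%) and was below all 4 for 3, against 20.2% and 28.7% of all genes. In limma 11 genes were called higher and 0 lower (background 1.38% and 0.258%), and at an unadjusted p under 0.05 50 genes passed. The largest differences were in Cox8b (1.63 on the log2 scale, 3.1-fold) and Cox7a1 (1.41, 2.65-fold), muscle forms of complex IV. The ubiquitous Ndufa4 (0.69, adjusted p = 0.0808) came next and was not called, and the muscle form Cox6a2 (0.68) was called. Cox8b read 10.40 log2 units in this mouse and 8.59, 8.51, 8.99 and 8.96 in the wild-type saline mice. The ubiquitous genes Atp5g1 (0.68), Uqcrq (0.64), Cox5a (0.63) and Atp5o (0.58) were called as well.

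In the same saline mouse 9 of 14 skeletal muscle markers were called higher (median log2 difference 2.37), with Acta1, skeletal muscle actin, at 11.89 log2 units against 6.48, 6.62, 6.81 and 6.59 in wild-type saline mice. The mean log2 signal of these markers was 9.28 in this mouse and 7.07 to 7.19 in wild-type saline mice. Of the cardiac markers 11 of 12 were higher (mean log2 signal 11.29 against 9.95 to 10.22), of the squamous epithelium markers 8 of 11 (9.98 against 7.66 to 7.77), and of the brown fat markers 1 of 6 (9.04 against 8.18 to 8.51). The part of these tissues in the higher OXPHOS values of this lung was not tested, and with 1 mouse the genotype and the animal cannot be told apart.

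The muscle forms changed greatly against one control and little against the other. Against the NOS2-/- saline mouse Cox8b changed by -1.59 ± 0.28 (SE, adjusted p = 0.000664) on the log2 scale at 7 h and Cox7a1 by -1.45 ± 0.13 (SE, adjusted p = 1.16e-06), the largest falls of the 84 genes. Against the wild-type saline mice the changes were 0.04 and -0.04 at 7 h and 0.13 and 0.04 at 22 h, none of them called. Ndufb10, Ndufa6, Ndufa13, Ndufs7 and Uqcr11 gave log2 fold changes between -1.08 and -0.90 at 7 h against the NOS2-/- saline mouse, and were called lower against the wild-type saline mice too (-0.96 to -0.44).

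The wild-type comparison and the NOS2-/- comparison against its own saline mouse share no animals. At 7 h all 22 genes called lower in wild-type mice were among the 62 called lower in NOS2-/- mice (the whole first list and 35.5% of the second). Since 73.8% of all 84 genes were called lower against that saline mouse at 7 h and 60.7% at 22 h, nothing is read from the overlap. At 22 h 24 of 26 wild-type genes (92.3%) were among the 51 of NOS2-/- mice (47.1% of that list). Probe sets of 1 gene disagreed in NOS2-/- mice at 7 h for Ndufb9 and Cox8a, each with a probe set called higher beside the one called lower. Ndufb1 was the gene called higher in both genotypes at 22 h, reading 8.94 log2 units in the NOS2-/- saline mouse and 9.41, 9.48 and 9.25 at 22 h.

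From 7 h to 22 h in NOS2-/- mice, 3 OXPHOS genes were called higher and 0 lower (background 4.55% and 3.87%). Cox7a2l rose by 0.37 ± 0.07 (SE, adjusted p = 0.0052) on the log2 scale, Sdhd by 0.34 (adjusted p = 0.0206) and Atp5l, a membrane subunit of complex V, by 0.31 (adjusted p = 0.0482). Without wild-type LPS 22 h replicate 2, which enters through the shared estimate of spread, 10 were called higher and 2 lower (background 11.7% and 9.55%). Of the 3 genes, Cox7a2l alone stayed past the threshold when NOS2-/- LPS 7 h replicate 3 or any 1 of the 22 h mice was dropped.

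With all arrays fitted at equal weight, NOS2-/- and wild-type mice given LPS differed in few OXPHOS genes. The number called lower at 7 h was larger in other fits. At 7 h 3 genes were lower and 0 higher in NOS2-/- mice (background 1.52% and 0.670%), namely Ndufa3 (-0.30 on the log2 scale, adjusted p = 0.0434), Cox7a2 (-0.31, adjusted p = 0.0402) and Atp5g1 (-0.36, adjusted p = 0.0418). These calls were not stable: none was made without any 1 of the wild-type LPS 7 h mice or the NOS2-/- LPS 22 h mice, without wild-type saline replicate 1 or 2, or without NOS2-/- LPS 7 h replicate 2 or 3. Without wild-type LPS 22 h replicate 2, which enters here through the shared estimate of spread, 22 genes (26.2%) were called lower and 1 higher. Of all genes 14.0% were then lower and 14.7% higher. Fitting only the groups compared also gave 22 lower, and array weights gave a larger number. The shares of all genes under these 2 fits are not given, so nothing is read from these counts about the OXPHOS genes. The median log2 difference over the 84 genes at 7 h was -0.13, beside 0.04 over all genes.

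At 22 h 4 genes were higher and 3 lower in NOS2-/- mice (background 10.2% and 7.84%). The higher genes were Cox7a1 (0.44, adjusted p = 0.00527), Atp5e (0.43, adjusted p = 0.00404), Ndufs3 (0.37, adjusted p = 0.0238) and Ndufa10 (0.23, adjusted p = 0.0428). Ndufs5 (-0.46, adjusted p = 0.00661), Ndufa3 (-0.25) and Atp5mpl (-0.19) were lower. Ndufs5 read 9.73, 10.14 and 9.68 log2 units in the wild-type and 9.39, 9.41 and 9.37 in the NOS2-/- mice, and all NOS2-/- mice were below all wild-type mice. Without wild-type LPS 22 h replicate 2, 4 genes were higher and 13 lower, against a background of 11.9% and 16.6%. The higher calls numbered 2 when any 1 of the NOS2-/- LPS 22 h mice was dropped, and the lower calls numbered 1 when replicate 2 or 3 of them or wild-type LPS 22 h replicate 1 was dropped. With quantile normalisation 3 were higher and 14 lower (background 10.5% and 11.1%). Cardiac markers differed between the same groups, 8 of 12 being higher in NOS2-/- mice, and their part in the difference of Cox7a1 was not tested.

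The difference between genotypes was also tested directly. For the change from 7 h to 22 h, 2 OXPHOS genes changed more upward in NOS2-/- mice and 0 more downward (background 2.71% and 0.702%). Cox7a1 read 7.72, 7.80 and 7.55 log2 units at 7 h and 7.21, 7.22 and 7.03 at 22 h in wild-type mice, and 7.43, 7.47 and 7.61 at 7 h and 7.72, 7.50 and 7.55 at 22 h in NOS2-/- mice. The wild-type mice at 22 h were below all others, and the difference of changes was 0.62 ± 0.13 (SE, adjusted p = 0.0217) on the log2 scale. For Atp5e the difference of changes was 0.51 ± 0.13 (SE, adjusted p = 0.0427). No gene was called without wild-type LPS 7 h replicate 1 or 2, NOS2-/- LPS 7 h replicate 2 or NOS2-/- LPS 22 h replicate 1, and 1 gene was called without wild-type LPS 7 h replicate 3, wild-type saline replicate 4, NOS2-/- LPS 7 h replicate 1 or 3, or NOS2-/- LPS 22 h replicate 2 or 3.

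For the response at 22 h against each genotype's own saline mice, 13 genes had a more negative response in NOS2-/- mice and 0 a more positive one (background 2.68% and 2.76%). Each of these differences includes the 1 NOS2-/- saline mouse. They were largest for Cox8b (-1.35 on the log2 scale, adjusted p = 0.0332) and Cox7a1 (-0.97, adjusted p = 0.00253), followed by Ndufs5 (-0.77), Atp5g1 (-0.74), Cox6a2 (-0.60) and Uqcrq (-0.59). The others were Ndufs7, Ndufs8, Ndufv2 and Ndufa3 of complex I, Cox6a1 of complex IV, and Atp5o and Atp5k of complex V, between -0.56 and -0.42. Without wild-type LPS 22 h replicate 2, 40 genes had a more negative response (background 9.97% and 6.27% more positive), while without NOS2-/- LPS 22 h replicate 2 or 3, 8 and 6 did. With quantile normalisation 25 did (background 4.22% and 3.72% more positive).

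**Figure D5:**
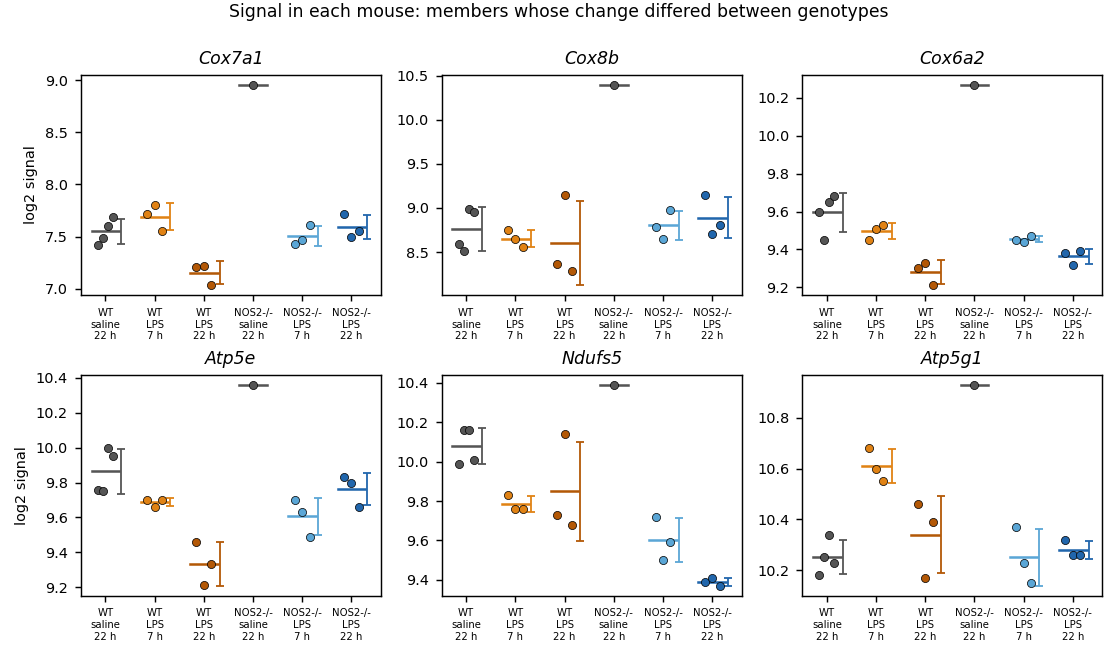
Log2 signal of 6 OXPHOS genes with a called difference between genotypes, in each of 17 mice, with the group mean as a line and the SD as a bar; each panel has its own y axis. For Cox7a1, Cox8b, Cox6a2 and Atp5g1 the NOS2-/- saline mouse is above every other mouse, and for Ndufs5 the NOS2-/- mice at 22 h are lowest.

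Some other mitochondrial genes in wild-type mice changed more than any of the OXPHOS genes. Their lists together hold more genes, and those named were mostly picked for the size of their change, so the spread of the lists is not compared. Of 30 assembly factors outside the set, 5 were called lower and 4 higher at 7 h, and 9 and 3 at 22 h, beside 20.6% of all genes lower and 14.6% higher at 7 h and 22.6% and 13.1% at 22 h. They were 5 and 9 at 7 h and 9 and 4 at 22 h without wild-type LPS 22 h replicate 2. Sdhaf4, which inserts the flavin-carrying subunit of complex II, gave a log2 fold change of -0.82 at 22 h (adjusted p = 1.51e-07), and the complex IV factors Coa3, Coa6 and Surf1 gave -0.69, -0.68 and -0.58. Of 12 electron carriers and related genes, Cycs, cytochrome c, rose by 0.99 at 7 h (adjusted p = 2.2e-08) and 0.69 at 22 h. Etfa and Etfb, which feed electrons from fatty acid oxidation to ubiquinone, and Atpif1, the inhibitor of complex V, were called lower at 22 h, at -0.48, -0.46 and -0.48.

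In fatty acid oxidation 8 of 15 genes were called lower at 7 h and 7 at 22 h, with 1 higher each time. Of all genes 20.6% were lower and 14.6% higher at 7 h, and 22.6% and 13.1% at 22 h. Without wild-type LPS 22 h replicate 2 the 22 h shares of all genes were 24.3% and 19.0%. Hadh, a dehydrogenase of the pathway, gave log2 fold changes of -1.18 and -1.47, and Acadm, which starts the oxidation of medium-chain fatty acids, -0.54 and -0.83. In the tricarboxylic acid cycle with pyruvate dehydrogenase, 8 of 20 genes were lower and 4 higher at 22 h (median log2 fold change -0.10), and 6 lower and 7 higher (median 0.07) without wild-type LPS 22 h replicate 2. Pdk4, the kinase that switches pyruvate dehydrogenase off, rose by 1.70 at 7 h and 1.86 at 22 h, while Pdk2, another such kinase, gave -0.98 and -0.61. Of 74 mitochondrial ribosomal proteins 15 were lower and 7 higher at 22 h, and 13 and 14 without that mouse. Of 9 ubiquinone synthesis genes 2 were lower and 1 higher, and 3 and 1 without it.

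Among 17 regulators of mitochondrial biogenesis and DNA maintenance, 1 was called lower and 2 higher at 7 h, and 3 and 1 at 22 h. The shares of all genes are those given above for the same comparisons. The counts were 3 lower and 3 higher at 7 h and 3 and 3 at 22 h without wild-type LPS 22 h replicate 2. Pprc1, a coactivator of nuclear OXPHOS genes, rose by 1.24 at 7 h (adjusted p = 1.86e-07) and 0.64 at 22 h, and Gabpb1 by 0.56 at 7 h. Ppargc1a, Nrf1, Esrra and Tfam gave log2 fold changes of 0.24, -0.12, 0.12 and -0.23 at 22 h, none of them called. In membrane transport and protein import 5 of 26 genes were lower and 4 higher at 22 h (4 and 6 without that mouse), with the import chaperone Hspa9 higher by 1.05 at 7 h and Pink1, the kinase that marks damaged mitochondria, at -0.84.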

How the data were processed

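Whole-lung RNA of 17 mice was hybridised to Affymetrix MOE430A arrays, 1 per mouse. The deposited values are log2 signals per probe set that the authors made from the scans with the affy package in R. The method of background correction and normalisation is not stated, and scan dates were not used here. If the arrays were equalised, a shift common to all genes would not show. Probe sets were named through GEO's platform annotation. Of 22690 probe sets, 64 controls were left out and 22626 tested.

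A mean per group was fitted over all 17 arrays in limma 3.58.1 (R 4.3.3, prior degrees of freedom 3.75), with Benjamini-Hochberg adjustment over all probe sets and a threshold of 0.05. Percentages of all genes called are over the 12393 genes with 1 probe set each, chosen as for the members. The number of arrays limits the precision. In data simulated for the wild-type 7 h comparison over 22626 probe sets, 92 of 100 probe sets changed 2-fold were recovered. The simulation changed 200 probe sets in all, a far smaller share than was called in the real comparison, so its adjusted threshold was not the same. Nearly all changes of the OXPHOS genes were smaller, and the share recovered does not apply to them. No more than 1 sample came from a mouse, so that p-values measure the spread between mice.

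The members, gene lists and marker lists were chosen with earlier results of these data known. Values were given for up to 3 called members per complex with the largest change, for isoforms, complex II and members differing between genotypes, and for up to 6 genes of a list. Nrf1, Esrra, Ppargc1a and Tfam and the other members named were added after their values were seen. Promoters are RefSeq sequences of GRCm38.p6. The alternatives were quantile or median scaling, fitting only the groups compared, a filter on dim probe sets, a trended robust prior, array weights, the replicate number as a block, the mean of all probe sets, adjusted p under 0.01, leaving out each mouse, and wild-type saline mice as the control. The fits of the saline mice with each other, the isoform ratios with their exact permutation tests, and the summaries without wild-type LPS 22 h replicate 2 were added after the data were seen.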

Additional observations from a re-analysis of the deposited data

Results flagged for a closer look

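In wild-type saline mice 1 of the 4 mice lay far from the others for 5 of the 84 genes, the gap to its neighbour being 0.89 of the whole range for Ndufa8, 0.869 for Ndufb1, 0.851 for Ndufb9, 0.9 for Ndufaf1 and 0.851 for Uqcrb, above Dixon's critical value for 4 samples. Chance alone places about 1 in 20 groups beyond that value.

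The change from 7 h to 22 h differed between genotypes, as NOS2-/- minus wild-type on the log2 scale, by 0.619 for Cox7a1 and 0.51 for Atp5e (interaction term in limma).

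The response at 22 h against each genotype's own saline mice differed between genotypes in 13 genes, all more negative in NOS2-/- mice and all resting on 1 NOS2-/- saline mouse. On the log2 scale the difference was -0.463 for Ndufa3, -0.775 for Ndufs5, -0.563 for Ndufs7, -0.485 for Ndufs8 and -0.483 for Ndufv2 in complex I and -0.594 for Uqcrq in complex III. It was -0.421 for Cox6a1, -0.596 for Cox6a2, -0.973 for Cox7a1 and -1.346 for Cox8b in complex IV, and -0.737 for Atp5g1, -0.492 for Atp5k and -0.554 for Atp5o in complex V.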

How the results depend on the processing

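Of the calls in wild-type mice, 18 of 28 at 7 h and 21 of 32 at 22 h were made in every setting run, as were 32 of 62 and 28 of 52 in NOS2-/- mice against their saline mouse, 1 of 3 from 7 h to 22 h in NOS2-/- mice and 2 of 13 of the differing 22 h responses; none of the 4 calls from 7 h to 22 h in wild-type mice, the 3 and 7 between genotypes or the 2 of the differing change was. Among the called genes, Cox6b2, Cox7a1 and Ndufaf7 were not tested under the filter on dim probe sets and were counted over the other settings. Counts below are genes called higher or lower, and the cause of each shift was not tested unless the setting itself uses fewer mice or a stricter threshold. The shares of all genes called moved between settings too. Where no such share stands beside a count under another setting, here or above, nothing is read from it about the OXPHOS genes. With quantile normalisation wild-type 7 h gave 43 lower, wild-type 22 h against 7 h 10 higher, NOS2-/- 22 h against 7 h 1 lower, the genotypes at 22 h 14 lower, the differing change 1 higher and the differing response 25 lower; with array medians subtracted wild-type 22 h against 7 h gave 4 higher and 2 lower, NOS2-/- 22 h against 7 h 6 higher and the genotypes at 22 h 7 lower. With array weights wild-type 7 h gave 11 higher, NOS2-/- 7 h 2 higher, wild-type 22 h against 7 h 3 higher, NOS2-/- 22 h against 7 h 17 higher and 8 lower, the genotypes 2 higher and 36 lower at 7 h and 10 lower at 22 h, and the differing response 1 higher and 47 lower. With only the groups compared wild-type 22 h gave 2 higher, wild-type 22 h against 7 h 0 lower, NOS2-/- 22 h against 7 h 8 higher and 2 lower, the genotypes 22 lower at 7 h and 0 higher and 0 lower at 22 h, the differing change 1 higher and the differing response 3 lower. At adjusted p under 0.01 wild-type mice gave 14 lower at 7 h, 3 higher at 22 h and 1 lower between times, NOS2-/- mice 1 higher between times, the genotypes 0 lower at 7 h and 2 higher and 1 lower at 22 h, the differing change 0 higher and the differing response 3 lower. The mean of all probe sets gave 1 higher and 8 lower, and the trended robust prior 2 lower, for wild-type 22 h against 7 h, and the filter on dim probe sets 1 higher for the differing change. Same-numbered mice of different groups had correlations of -0.385 to 0.362 (median -0.0159, 30 pairs), so the replicate number did not pair them; as a block it gave 1 higher in NOS2-/- 7 h, 0 lower between genotypes at 7 h, 2 higher at 22 h, 1 higher for the differing change and 3 lower for the differing response. Leaving out single mice gave 5 to 10 higher and 17 to 29 lower in wild-type 7 h, 3 to 14 and 25 to 30 in wild-type 22 h, 0 and 51 to 73 in NOS2-/- 7 h, 1 and 45 to 65 in NOS2-/- 22 h, 0 to 3 and 1 to 8 for wild-type 22 h against 7 h, 1 to 10 and 0 to 2 for NOS2-/- 22 h against 7 h, 0 to 1 and 0 to 22 between genotypes at 7 h, 2 to 5 and 1 to 13 at 22 h, 0 to 3 and 0 for the differing change and 0 and 6 to 40 for the differing response. With wild-type saline mice as the control NOS2-/- 7 h gave 3 higher and 40 lower and NOS2-/- 22 h 6 higher and 31 lower, and the sign turned for Uqcrq (0.207), Cox5a (0.145) and Cox8b (0.045) at 7 h and for Ndufa10 (0.062), Ndufb8 (0.109), Ndufv2 (0.044), Sdhb (0.023), Cox5a (0.191), Ndufa4 (0.09), Cox7a1 (0.04), Cox8b (0.129) and Atp5g1 (0.034) at 22 h. Uqcrq at 7 h in NOS2-/- mice also turned with the mean of its probe sets (0.065). The NOS2-/- saline mouse could not be left out where it is the control.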
